A study of Mus musculus with 4 samples.

Results

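The Rab GTPases are small switch proteins of vesicle traffic. They were chosen here as every gene whose single symbol in the platform annotation is Rab followed by a number, with or without a letter, which left out genes that only bind or regulate Rabs. The rule gave 59 genes of the 18193 with a single symbol on the array, measured by 132 of 45037 probe sets. A probe set is a group of short oligonucleotides aimed at 1 transcript, and 1 gene can have several.

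The cells were macrophages grown from MyD88 -/- bone marrow for 6 days in recombinant human M-CSF. All 4 arrays came from such cells, so the loss of MyD88, the adaptor of most Toll-like receptors, was shared by both groups. One group was left unstimulated (0 min, 2 arrays) and the other received 100 ug/ml zymosan, a yeast cell wall particle that macrophages engulf, for 120 min (2 arrays). The labels used here give no strain, sex or age. Whether 2 arrays of 1 group stand for different animals or dishes is not stated, so every p-value below reflects array-to-array spread, part of which may be technical.

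A Rab bound to GTP sits on the membrane of 1 kind of organelle and recruits effectors that tether, move or fuse vesicles. Exchange factors load it with GTP, GTPase-activating proteins switch it off, and GDI carries the inactive, lipid-modified form through the cytosol. In a macrophage, a new phagosome carries Rab5 first and Rab7 later, as it fuses with early endosomes and then with lysosomes, while recycling Rabs return membrane to the surface.

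The array data bear on how far the Rab messages themselves shifted during 120 min of particle uptake. Values are log2 expression values, and differences are zymosan minus unstimulated on that scale. The unstimulated arrays were run with 16 days between them. The zymosan arrays were run together, 153 days after the earliest array, by a different operator and under a different project. Stimulus, day, operator and project therefore cannot be told apart. In its title, each zymosan array bears the letters ZYM. In that place the unstimulated titles read LPS or PIC, so these arrays appear to be starting points of other stimulus series. Whether their cells were grown beside the zymosan cells is not stated, and they cannot be taken as matched controls. The macrophage markers Lyz2, Cd68, Mpeg1 and Csf1r were high on every array and did not pass the test. All 11 macrophage markers passed the filter, 5 of them lower with zymosan, beside 5.64% of all tested genes, and 6 not past the test. The 5 were Cx3cr1 (-2.77), Itgam (-1.66), Fcgr1 (-1.10), Adgre1 (-0.82) and Cd14 (-0.70). Summed log2 values of the 11 were 124.5 and 125.0 on the unstimulated and 117.2 and 117.1 on the zymosan arrays. Granulocyte and granulocyte precursor markers moved with the groups. Of the 13 that passed the filter, 10 were higher with zymosan, Mpo and S100a8 among them, beside 8.36% of all tested genes. Ms4a3, 1 of these 10, was at 3.9 and 4.0 on the unstimulated arrays, under the filter, and at 4.9 and 5.1 on the zymosan arrays. It entered the test through the zymosan arrays alone and so had to differ. Summed log2 values of the 13 granulocyte markers were 78.4 and 78.6 on the unstimulated and 97.6 and 98.8 on the zymosan arrays. Their part in the Rab results was not tested. In bulk RNA a change in the mix of cells and a change of RNA per cell cannot be told apart.

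Probe sets were tested if at least 2 arrays placed them at or above their own 40th percentile. This held for 105 of the 132 Rab probe sets and for 51 of the 59 Rab genes. The other 8 genes, Rab3c, Rab9b, Rab30, Rab33a, Rab39, Rab39b, Rab40b and Rab42, had no probe set above the filter. A gene was read at its tested probe set of highest mean, called its representing probe set, and passed the test where limma's p, adjusted by Benjamini-Hochberg over all 27571 tested probe sets, was under 0.05.

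Most Rab messages, like most genes on the array, differed little after zymosan, and the Rabs that passed the test were mostly lower. Rab20, a Rab of early phagosomes and macropinosomes, was the 1 gene that rose. Rab5c of early endosomes, Rab1b of the early secretory route, Rab8a and Rab35 of transport to and from the cell surface, Rab34 of macropinosomes and lysosome positioning, and Rab19, a less studied Rab, fell. Rab5b of early endosomes was lower at its representing probe set and higher at its other one, so it is counted among the lower genes below but given no direction. The remaining 43 tested genes did not pass, with differences from -0.44 (Rab8b) to 0.47 (Rab32).

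In all, 8 of 51 Rab genes passed (15.7%), beside 14.0% of all 13222 genes. By direction, 1 of 51 was higher (2.0%), beside 8.36% of all genes, and 7 of 51 were lower (13.7%), beside 5.64%. At the level of probe sets, 20 of 105 passed (19.0%, beside 15.9% of all), 8 higher (beside 8.48%) and 12 lower (beside 7.45%). Fitted differences of at least 1, a 2-fold change, were found for 2 of the 51 Rab genes, Rab20 and Rab5c, beside 3.80% of all genes. The median difference was -0.04 over Rab genes and 0.00 over all genes. Without regard to sign, the median difference was 0.17 over Rab genes and 0.18 over all genes. The share that passed lies near the background, and the difference of the Rab shares from those of all genes was not tested. The arrays of the groups did not overlap for 9 Rab genes on the higher side (17.6%, beside 32.4% of all genes) and for 22 on the lower side (43.1%, beside 28.2%).

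**Figure D1:**
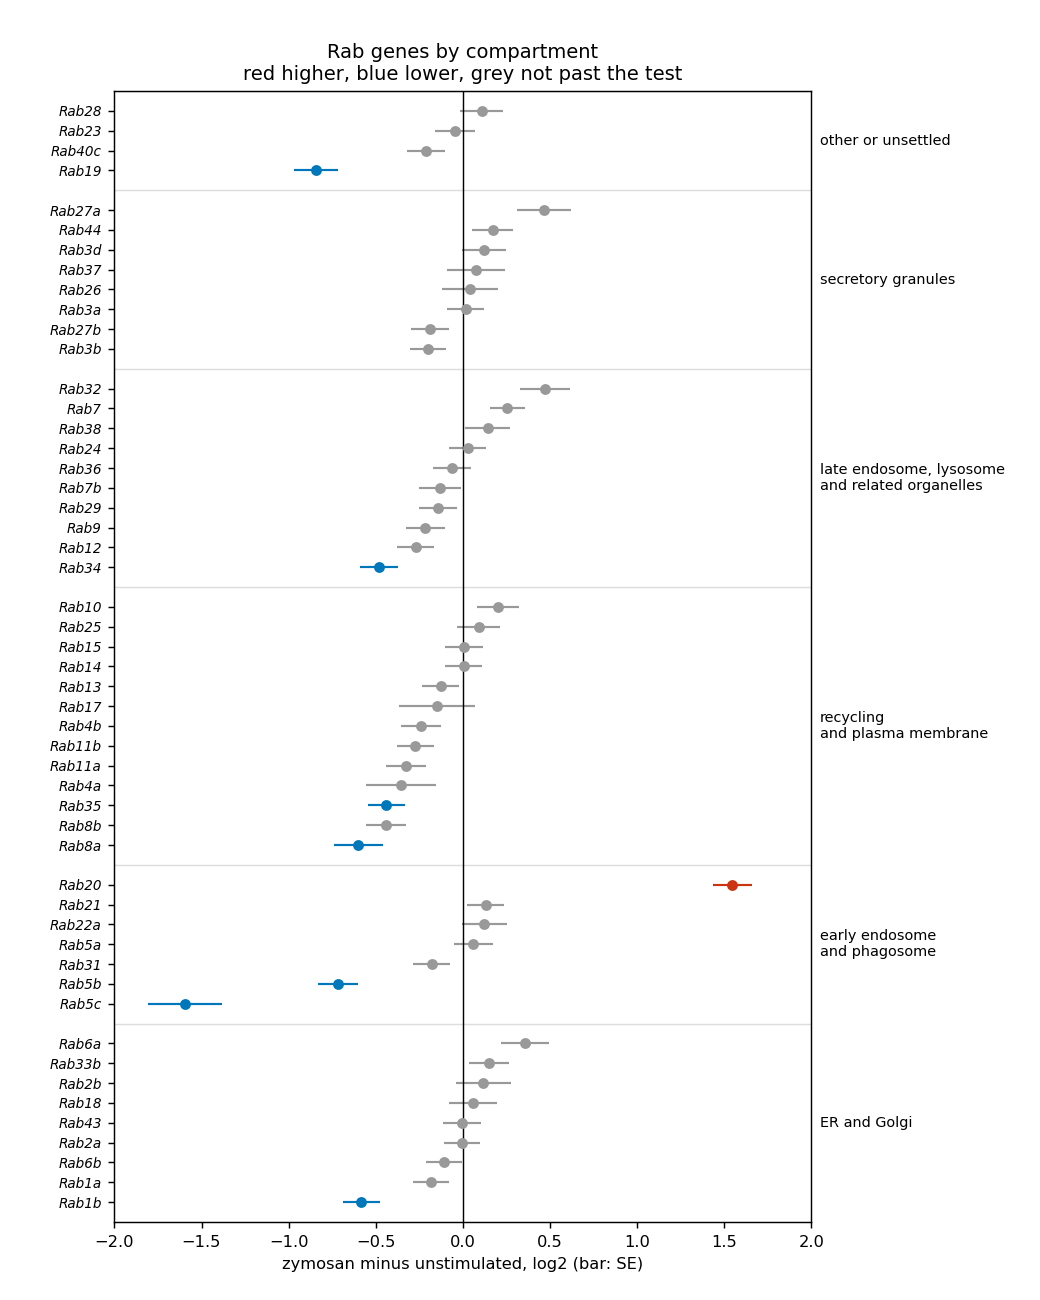
Difference between zymosan and unstimulated arrays on the log2 scale for the 51 tested Rab genes, each at its representing probe set, grouped by the compartment the Rab is known for; bars are limma's standard errors. Rab20 at 1.55 and Rab5c at -1.60 stand at opposite ends within the early endosome group, and 34 of the 51 genes lie within 0.25 of 0. Without regard to sign, the median difference was 0.17, beside 0.18 over all genes.

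Early endosomal Rabs held both the largest increase and the largest decrease of the family. Of the 7 genes, all tested, Rab20 rose, Rab5c fell, Rab5b had opposite readings at its probe sets, and Rab5a, Rab21, Rab22a and Rab31 did not pass at their representing probe sets. At representing probe sets 1 of the 7 was higher, beside 8.36% of all genes, and 2 were lower, beside 5.64%. The difference of these shares was not tested. The median of the group was 0.06.

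Rab20 was at 6.45 and 6.62 on the unstimulated arrays and at 8.10 and 8.06 on the zymosan arrays. The zymosan arrays lay close together and well above both unstimulated arrays. The difference was 1.55 (SE 0.11, adjusted p = 0.00273), a 2.92-fold increase. Rab20 was past the threshold, and higher, under each of the 12 alternative settings tried, with adjusted p from 0.00128 to 0.0404.

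Rab5c, 1 of the 3 Rab5 forms that drive fusion of early endosomes, was at 9.69 and 10.01 on the unstimulated arrays and at 8.53 and 7.98 on the zymosan arrays. The groups did not overlap, although the zymosan arrays lay 0.54 apart. It fell by 1.60 (SE 0.21, adjusted p = 0.00987), or 3.02-fold. Without zymosan replicate 2 the difference was -1.32 and did not pass (adjusted p = 0.0603).

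Rab5a, the most studied of these forms, was at 9.85 and 9.94 on the unstimulated and 9.89 and 10.03 on the zymosan arrays, which overlap. Its difference was 0.06 (SE 0.11, adjusted p = 0.77). The difference between Rab5a and Rab5c in their response was not tested.

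Rab5b gave opposite readings at its 2 tested probe sets. The representing one was at 6.66 and 6.50 on the unstimulated and 5.83 and 5.91 on the zymosan arrays, a fall of 0.72 (SE 0.11, adjusted p = 0.0156). The other was at 4.52 and 4.31 on the unstimulated and 5.39 and 5.15 on the zymosan arrays, a rise of 0.85 (SE 0.14, adjusted p = 0.0168). Its unstimulated values lay near the filter's level of 4.39, and that of unstimulated replicate 2 was below it, so they measure little beyond background. The arrays of the groups were apart at both probe sets, in opposite directions, and the mean of the 2 differed by 0.07 (adjusted p = 0.698), so no direction is given for the gene.

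The stretches before the start sites of Rab20, Rab5c and Rab5b are shown because these 3 genes of 1 compartment carried the unlike responses. Each is the 250 bases before the annotated start, 5′ to 3′ on the gene's strand, from RefSeq on GRCm38.p6. Capitals mark matches on either strand to the E-box letters CACGTG, bound by MiT/TFE and Myc family factors, and to the GC-box letters GGGCGG, bound by SP1 family factors.

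Rab20, chr8:11478641-11478890, minus strand: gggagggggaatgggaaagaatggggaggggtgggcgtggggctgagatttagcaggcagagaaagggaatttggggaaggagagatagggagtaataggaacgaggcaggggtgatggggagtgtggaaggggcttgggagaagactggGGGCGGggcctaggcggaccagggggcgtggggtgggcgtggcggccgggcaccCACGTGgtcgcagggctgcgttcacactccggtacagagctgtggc

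Rab5c, chr11:100738216-100738465, minus strand: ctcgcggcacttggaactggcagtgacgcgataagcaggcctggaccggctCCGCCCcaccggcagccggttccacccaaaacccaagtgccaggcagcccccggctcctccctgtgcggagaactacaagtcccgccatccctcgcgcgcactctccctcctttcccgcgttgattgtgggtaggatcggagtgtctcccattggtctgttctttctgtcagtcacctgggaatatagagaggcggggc

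Rab5b, chr10:128696269-128696518, minus strand: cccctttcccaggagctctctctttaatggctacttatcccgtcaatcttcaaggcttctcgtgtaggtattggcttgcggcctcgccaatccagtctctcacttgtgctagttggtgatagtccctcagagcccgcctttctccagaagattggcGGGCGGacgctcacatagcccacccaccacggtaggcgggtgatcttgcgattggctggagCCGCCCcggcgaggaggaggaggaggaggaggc

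Rab20 held 1 CACGTG match, which began 46 bases before the start, and 1 GGGCGG match. Rab5c held 1 GGGCGG match and Rab5b 2, and neither held CACGTG. Over all 32851 such stretches of RefSeq genes, CACGTG occurred in 6.0% and GGGCGG in 32.7%. Of the 59 Rab genes, 48 matched the table by symbol, with 60 stretches between them, of which 5 (8.3%) held CACGTG and 40 (66.7%) GGGCGG. Besides Rab20, CACGTG was found in stretches of Rab5a, Rab21, Rab23 and Rab27a, none of which passed the test. The median GC content was 60.2% in the Rab stretches and 52.4% over all.

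Further motifs searched on both strands were the EGR letters GCGNGGGCG, which can share bases with GGGCGG, the AP-1 letters TGANTCA, the interferon response element and the NF-kB consensus. They occurred in 4, 2, 1 and 2 of the 60 Rab stretches (6.7%, 3.3%, 1.7% and 3.3%), beside 4.7%, 6.7%, 3.0% and 3.9% of all stretches. None of these 4 was found in the stretches shown. A match of letters is a description and not a measured site.

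**Figure D2:**
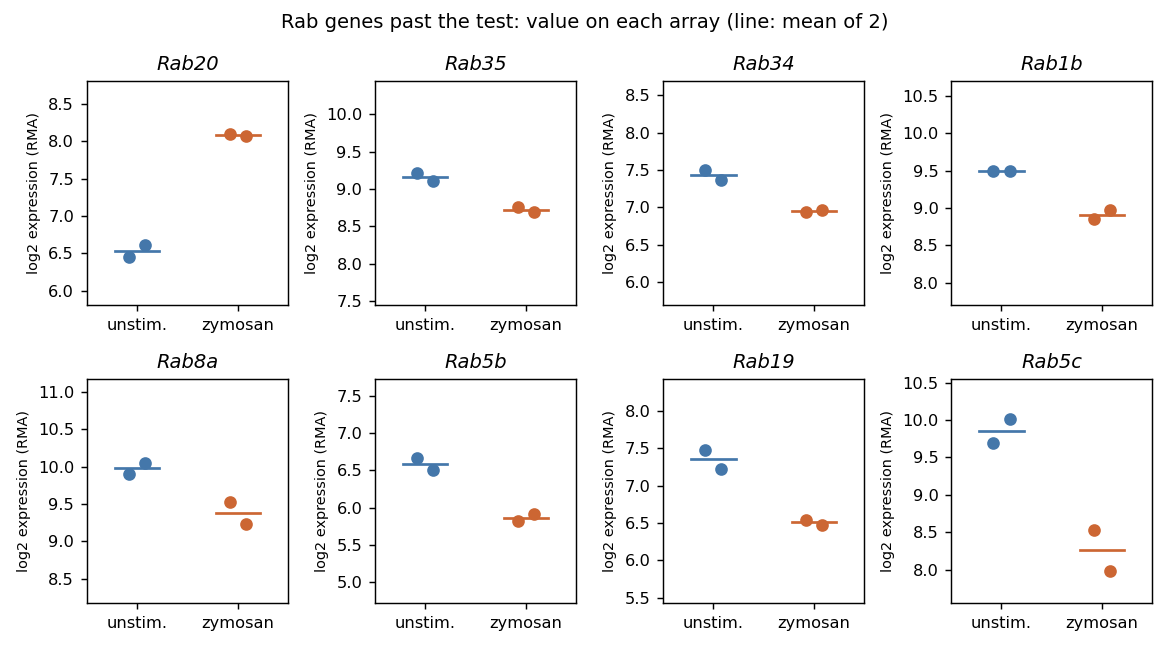
Log2 expression on each array (points) and the mean of the 2 arrays of a group (lines) for the 8 Rab genes that passed the test; every panel spans 3 log2 units. The groups do not overlap in any panel, Rab20 is the 1 gene higher with zymosan, and the zymosan points of Rab5c lie farthest apart.

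Rab31, which works between the Golgi and endosomes and is present on phagosomes, differed between probe sets in size. At the representing probe set it was at 10.69 and 10.58 on the unstimulated and 10.45 and 10.46 on the zymosan arrays, a difference of -0.18 that did not pass (SE 0.11, adjusted p = 0.314). At its other probe set it was at 8.81 on both unstimulated arrays and at 7.42 and 7.07 on the zymosan arrays. That reading fell by 1.56 (SE 0.15, adjusted p = 0.00449), or 2.95-fold, and passed under each of the 10 alternatives run on probe sets. The mean of both probe sets was lower, at -0.87 (adjusted p = 0.00615), so the call of the gene depends on the probe set read. Of the 20 Rab probe sets that passed, only this one and that of Rab20 did so under each of those alternatives.

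Rab22a, which acts at endosomes that feed recycling, was read at 4 probe sets. The representing one was at 8.63 and 8.36 on the unstimulated and 8.65 and 8.59 on the zymosan arrays, which overlap (difference 0.12, adjusted p = 0.578). Another was at 8.20 and 8.35 on the unstimulated and 8.76 and 8.81 on the zymosan arrays and rose by 0.51 (adjusted p = 0.036). A dimmer one was at 5.27 and 5.95 on the unstimulated and 4.99 and 4.70 on the zymosan arrays. Its difference of -0.77 went the other way and did not pass (adjusted p = 0.0894). The remaining one differed by 0.01 (adjusted p = 0.977). Rab21, an endosomal Rab that binds integrin tails, differed by 0.13 (adjusted p = 0.458).

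Of 13 tested Rabs of recycling and of the plasma membrane, Rab8a and Rab35 fell and 11 did not pass. These 2 of 13 lie near the 14.0% of all genes that passed. The median was -0.24, beside 0.00 over all genes.

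Rab8a, which carries vesicles from the Golgi and recycling endosomes to the surface, was at 9.90 and 10.05 on the unstimulated and at 9.53 and 9.22 on the zymosan arrays. It fell by 0.60 (SE 0.14, adjusted p = 0.0436), or 1.51-fold. Its paralog Rab8b was at 12.01 and 12.06 on the unstimulated and at 11.51 and 11.68 on the zymosan arrays, a difference of -0.44 just short of the threshold (SE 0.11, adjusted p = 0.0545). Neither pair of groups overlapped.

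Rab35, a Rab of fast recycling, was at 9.22 and 9.11 on the unstimulated and at 8.76 and 8.69 on the zymosan arrays. It fell by 0.44 (SE 0.11, adjusted p = 0.0487), close to the threshold. The calls of Rab8a and Rab35 were lost when any 1 array was left out (adjusted p from 0.0518 to 0.276).

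Rab11a and Rab11b, the main Rabs of the recycling endosome, did not pass. Rab11a was at 11.12 and 11.21 on the unstimulated and at 10.76 and 10.93 on the zymosan arrays (difference -0.33, SE 0.12, adjusted p = 0.118). Rab11b differed by -0.27 (adjusted p = 0.142), Rab4b by -0.24 (adjusted p = 0.216) and Rab4a by -0.35 (adjusted p = 0.288). The groups did not overlap for Rab11a, Rab11b and Rab4b and did for Rab4a.

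Rab10, which serves surface delivery and macrophage receptor traffic, had unlike readings at its 3 probe sets. The representing one was at 9.29 on both unstimulated arrays and at 9.38 and 9.60 on the zymosan arrays, a difference of 0.20 that did not pass (adjusted p = 0.313). The others fell by 0.85 (8.02 and 8.28 against 7.40 and 7.20, adjusted p = 0.0171) and by 0.58 (9.25 and 9.26 against 8.66 and 8.69, adjusted p = 0.0196). The mean of the 3 was lower, at -0.41 (adjusted p = 0.0335), so the sign of the gene depends on the probe set read.

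Rab14, a Rab between Golgi, endosomes and phagosomes, had 7 tested probe sets. The representing one was at 11.91 and 11.99 on the unstimulated and 12 and 11.92 on the zymosan arrays, which overlap, and its name marks probes that match further transcripts (difference 0.00, adjusted p = 0.985). Another was at 9.34 and 9.53 on the unstimulated and 10.04 and 9.87 on the zymosan arrays and rose by 0.52 (adjusted p = 0.0473). All 7 differences were above 0, and 1 of the 7 passed.

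Of 10 tested late endosomal and lysosomal Rabs, 1, Rab34, was lower, beside 5.64% of all genes, and 9 did not pass. The differences ran from -0.48 (Rab34) to 0.47 (Rab32) with a median of -0.10. Of the 10, 4 had an unadjusted p under 0.05 in limma's test, 2 on each side. No share of all genes was taken at that unadjusted threshold, so the 4 cannot be read as a trait of these Rabs.

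Rab34 was at 7.49 and 7.37 on the unstimulated and at 6.93 and 6.96 on the zymosan arrays. It fell by 0.48 (SE 0.11, adjusted p = 0.038), while its other probe set differed by -0.31 (adjusted p = 0.286). Without unstimulated replicate 1 or either zymosan array the call was lost (adjusted p = 0.0754, 0.212 and 0.208).

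Rab7, which brings phagosomes and late endosomes to lysosomes, was at 11.35 and 11.38 on the unstimulated and at 11.65 and 11.59 on the zymosan arrays. The groups were apart by little, and the difference of 0.26 did not pass (SE 0.10, adjusted p = 0.155). Rab7b, a related Rab of macrophages, differed by -0.13 (adjusted p = 0.516), Rab9, which returns cargo to the Golgi, by -0.21 (adjusted p = 0.261), and Rab29 by -0.14 (adjusted p = 0.433).

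Rab32 and Rab38 are the Rabs of lysosome-related organelles, and Rab32 also acts against bacteria in phagosomes. Rab32 was at 9.75 and 10.03 on the unstimulated and at 10.27 and 10.45 on the zymosan arrays, a difference of 0.47 that did not pass with all arrays (SE 0.14, adjusted p = 0.0796) and passed without unstimulated replicate 2. Rab38 was at 5.94 and 5.79 on the unstimulated and 5.90 and 6.12 on the zymosan arrays, which overlap (difference 0.14, adjusted p = 0.511).

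In the secretory route between ER and Golgi, 1 of 9 tested genes fell, beside 5.64% of all genes. The other 8 did not pass, and the median was -0.00. Rab1b, which controls ER to Golgi transport, was at 9.49 on both unstimulated arrays and at 8.85 and 8.97 on the zymosan arrays. It fell by 0.58 (SE 0.11, adjusted p = 0.0225), or 1.5-fold. Its paralog Rab1a was at 12.38 and 12.43 on the unstimulated and 12.23 on both zymosan arrays, a difference of -0.18 that did not pass (SE 0.10, adjusted p = 0.289). The call of Rab1b was lost without zymosan replicate 1 (adjusted p = 0.164) or zymosan replicate 2 (adjusted p = 0.131).

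Rab6a, which moves vesicles within and out of the Golgi, rose at 2 of its 3 tested probe sets. The representing one was at 9.39 and 9.23 on the unstimulated and at 9.54 and 9.80 on the zymosan arrays (difference 0.36, adjusted p = 0.138). The others rose by 1.02 (8.89 and 8.45 against 9.63 and 9.76, adjusted p = 0.0174) and by 0.79 (8.22 and 8.15 against 8.74 and 9.21, adjusted p = 0.0368). The groups did not overlap at any of the 3. Rab2a, a second ER to Golgi Rab, differed by -0.00 (adjusted p = 0.988) and Rab18, a Rab of ER and lipid droplets, by 0.06 (adjusted p = 0.828).

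Among the Rabs of secretory granules, none of the 8 tested genes passed limma's test at its representing probe set, and 1 had an unadjusted p under 0.05. That gene was Rab27a, which docks granules at the surface in granulocytes and macrophages. It was at 5.53 and 5.37 on the unstimulated and 6.10 and 5.73 on the zymosan arrays (difference 0.47, SE 0.16, adjusted p = 0.105). Only 1 of the 4 probe sets of Rab27a passed the filter, and the others were under it on every array. Rab3d rose by 0.52 at 1 of its 4 tested probe sets (7.05 and 7.17 against 7.60 and 7.67, adjusted p = 0.0324) and differed by 0.12 at the representing one (adjusted p = 0.566). Rab3a, best known from synaptic vesicles, was read at a probe set named as open to cross-hybridization, at 9.04 and 9.09 on the unstimulated and 9.04 and 9.12 on the zymosan arrays, which overlap (difference 0.02, adjusted p = 0.937). Rab37 (0.07) and Rab44 (0.17) did not pass. The granulocyte markers given above were higher on the same arrays, and their part in these values was not tested.

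Of the 4 tested genes outside these groups, Rab19 fell and Rab23, Rab28 and Rab40c did not pass at their representing probe sets. Rab19 was at 7.48 and 7.23 on the unstimulated and at 6.54 and 6.48 on the zymosan arrays, a fall of 0.84 (SE 0.13, adjusted p = 0.0133), or 1.79-fold. It passed without either unstimulated array and not without zymosan replicate 1 (adjusted p = 0.0895) or zymosan replicate 2 (adjusted p = 0.115). Rab40c, a Rab that joins a ubiquitin ligase, was at 8.96 and 9.0 on the unstimulated and 8.82 and 8.72 on the zymosan arrays at the representing probe set (difference -0.21, adjusted p = 0.242). At the other it was at 6.54 and 6.39 on the unstimulated and 5.42 and 5.22 on the zymosan arrays and fell by 1.15 (adjusted p = 0.00635), or 2.21-fold.

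Of the tested genes not described above, Rab6b (-0.11) and Rab33b (0.15) belong to the Golgi. Rab13 (-0.13), Rab15 (0.01), Rab17 (-0.15) and Rab25 (0.09) belong to recycling, Rab12 (-0.27), Rab24 (0.03) and Rab36 (-0.06) to late endosomes, and Rab3b (-0.20), Rab26 (0.04) and Rab27b (-0.19) to granules. Rab23 differed by -0.04 and Rab28 by 0.11. None of these 14 passed limma's test at its representing probe set, and 1, Rab12, had an unadjusted p under 0.05.

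Probe sets of 1 gene often gave unlike readings, for Rab genes as for others. Of the 30 Rab genes with several tested probe sets, 11 had some but not all of them past the test (36.7%, beside 29.9% of the 5920 such genes on the array), 18 had none and Rab5b had both, in opposite directions. Of the 20 Rab probe sets that passed, 12 did not represent their gene, 7 of these higher and 5 lower. Counting any probe set, 17 Rab genes had at least 1 past the test, 7 with a higher and 11 with a lower reading. A gene with more probe sets is counted more easily this way. No share of all genes was taken in this way, so the 17 cannot be set beside the 14.0% read at representing probe sets. Rab2b fell by 0.46 at 1 of its 5 tested probe sets (adjusted p = 0.0443) and differed by 0.12 at the representing one. One of the 3 tested probe sets of Rab43 was at 4.30 on both unstimulated arrays, under the filter, and at 5.13 and 4.90 on the zymosan arrays, at least 1.54-fold higher. It entered the test through the zymosan arrays alone and so had to differ, and no p is given for it. Without it, 7 Rab probe sets were higher and 6 Rab genes had a higher reading. At the representing one the difference was -0.00.

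Some probe sets are designed to match several transcripts of 1 gene, and others share probes with further genes, which their names mark. Of the 132 Rab probe sets, 7 are named as shared with similar transcripts (ending in s_at) and 6 as open to cross-hybridization (ending in x_at). Of the 20 past the test, 1, of Rab6a, was of these kinds. Rab20, Rab5c, Rab1b, Rab19 and Rab35 each have 1 probe set on the array, so no second reading of them exists here.

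**Figure D3:**
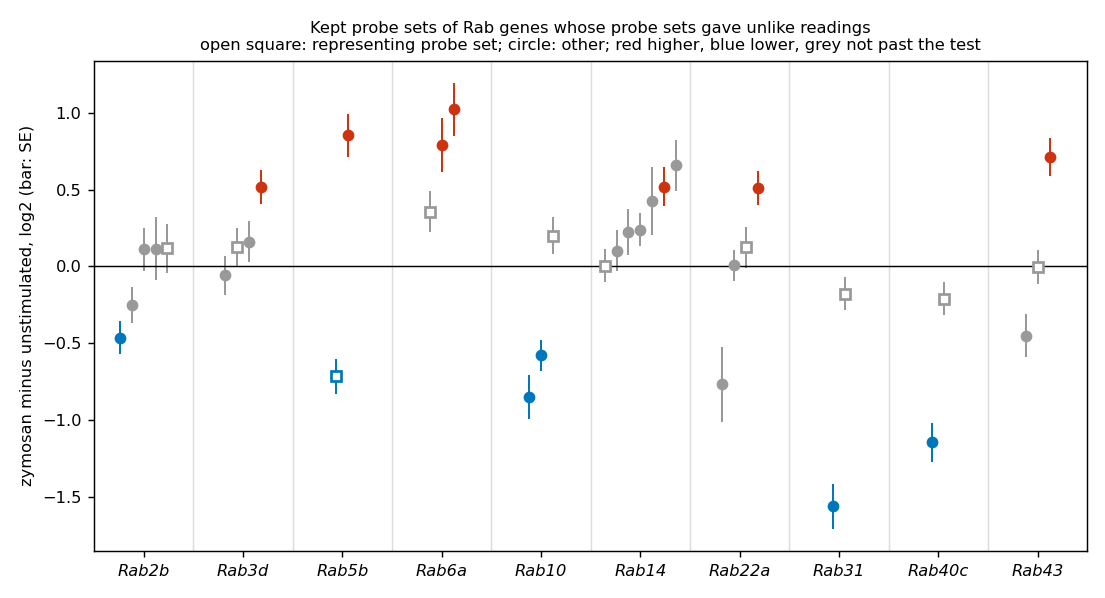
Zymosan minus unstimulated difference (log2, bars are SE) at each tested probe set of the 10 Rab genes in which a probe set other than the representing one passed the test; open squares are representing probe sets. Rab5b was read at -0.72 and 0.85, and Rab31 and Rab40c have 1 reading far below the other. The red point of Rab43 was tested through the zymosan arrays alone.

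The other genes of the Rab cycle were also mostly not past the test. Of 127 tested exchange factors, GTPase-activating proteins, effectors and carriers, 7 were higher, 10 lower and 110 did not pass, with a median of 0.01. These 13.4% lie close to the background of 14.0% of all genes.

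Exchange factors, which switch Rabs on, held 3 higher and 4 lower of 37, beside 8.36% higher and 5.64% lower of all genes. Rab3il1, an exchange factor of Rab8, was at 10.03 and 10.28 on the unstimulated and at 8.80 and 8.59 on the zymosan arrays. It fell by 1.46 (SE 0.14, adjusted p = 0.00474), or 2.75-fold, and 3 of its 4 tested probe sets fell. Dennd1c, an exchange factor of the Rab35 group, fell by 1.01 (8.02 and 7.56 against 6.87 and 6.69, adjusted p = 0.0197) at 1 of its 2 probe sets.

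Rin3, an exchange factor of Rab5 and Rab31, fell by 0.77 (6.76 and 6.94 against 6.13 and 6.02, adjusted p = 0.014). Gapvd1, a further exchange factor of Rab5, rose by 0.73 at the representing probe set (9.83 and 9.92 against 10.64 and 10.57, adjusted p = 0.0124), with another of its 5 tested probe sets lower. Dennd2c fell by 1.02 (adjusted p = 0.036). Rgp1, part of the exchange factor of Rab6, rose by 0.50 (adjusted p = 0.0384), and Ankrd27, that of Rab21, also a partner of Rab32 and Rab38, by 0.44 (adjusted p = 0.0422). Ankrd27 passed at 1 of its 2 tested probe sets.

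Among 34 GTPase-activating proteins, 1 rose and 3 fell, beside 8.36% higher and 5.64% lower of all genes. Rabgap1l was at 7.59 and 7.14 on the unstimulated and at 5.88 and 6.17 on the zymosan arrays and fell by 1.34 (SE 0.19, adjusted p = 0.0115), or 2.53-fold. Tbc1d14, a Rab11-binding regulator of autophagy, was at 9.79 and 9.82 on the unstimulated and at 8.85 and 8.52 on the zymosan arrays and fell by 1.12 (SE 0.14, adjusted p = 0.00876). Tbc1d17 fell by 0.52 (adjusted p = 0.0304), and Tbc1d1, which acts on Rab10 and Rab8, rose by 0.77 (adjusted p = 0.0213). Rabgap1l passed at 2 of its 4 tested probe sets and Tbc1d1 at 1 of its 4.

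Among 48 effectors, 3 rose and 3 fell, beside 8.36% higher and 5.64% lower of all genes. Rab11fip5, a Rab11 effector, was at 10.16 and 10.51 on the unstimulated and at 9.26 on both zymosan arrays and fell by 1.08 (SE 0.15, adjusted p = 0.0104), or 2.11-fold. Rab11fip2 of the same family fell by 0.54 (adjusted p = 0.0357) and Micall2, a partner of Rab13 and Rab8, by 0.56 (adjusted p = 0.0462). Rilpl2, an effector bound by phosphorylated Rab8 and Rab10, rose by 0.71 (adjusted p = 0.044), Osbpl1a, the Rab7 effector ORP1L, by 0.57 (adjusted p = 0.0286), and Micall1, a Rab8 and Rab35 partner at recycling tubules, by 0.57 (adjusted p = 0.0363). Rab11fip5, Rab11fip2 and Osbpl1a each passed at 1 of 2 tested probe sets. The Rab5 effectors Eea1 (0.36, adjusted p = 0.0745) and Appl1 (0.42, adjusted p = 0.0534) did not pass.

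Of the 8 tested genes that prenylate, deliver or retrieve Rabs, none passed limma's test at its representing probe set, and 1, Chm, had an unadjusted p under 0.05 (difference -0.50, adjusted p = 0.052). Another probe set of Chm was higher, and 1 of the 6 of Gdi2 lower. At its representing probe set Gdi2, the main GDI of most cells, differed by -0.04 (adjusted p = 0.858) and Rabggtb, a subunit of the enzyme that attaches the lipid, by 0.11 (adjusted p = 0.567). Without zymosan replicate 1, limma called none of the 127 genes higher and 2 lower, and without zymosan replicate 2 none in either direction, while 10 and 13 had an unadjusted p under 0.05 on the higher side and 11 each time on the lower.

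**Figure D4:**
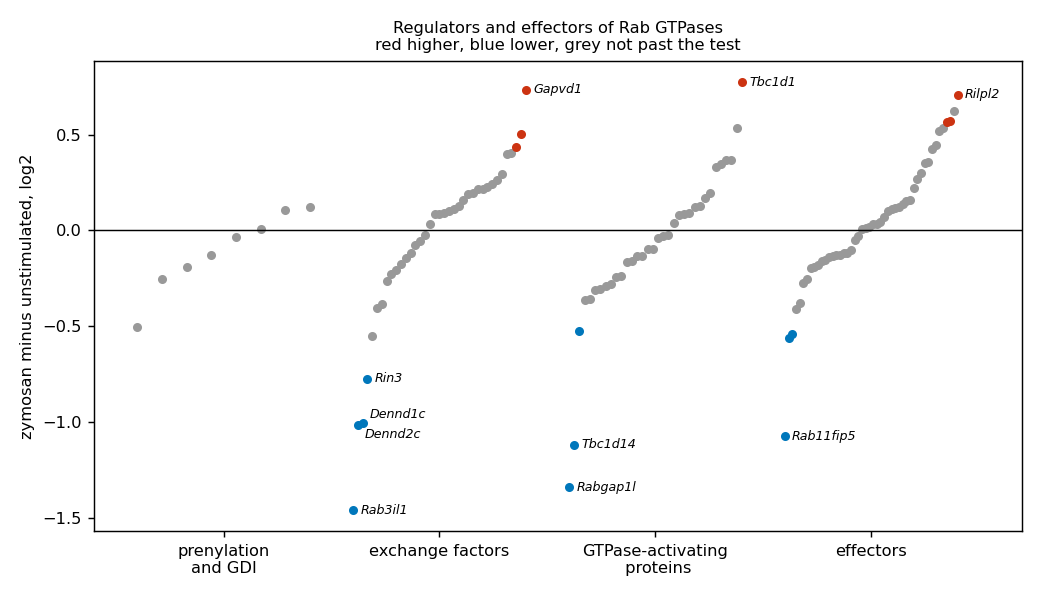
Zymosan minus unstimulated difference (log2) of the 127 tested regulators and effectors of Rabs, each at its representing probe set and ordered by value within its role. Most lie near 0, and the lowest points are Rab3il1 at -1.46 among exchange factors and Rabgap1l at -1.34 among GTPase-activating proteins.

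Leaving out arrays changed most calls. Of the 8 Rab genes past the test with all arrays, 5 remained past it without unstimulated replicate 1, 6 without unstimulated replicate 2, 2 (Rab20 and Rab5c) without zymosan replicate 1, and Rab20 alone without zymosan replicate 2. A fit that treats arrays run on 1 day as correlated was added once the data had been seen, and in it Rab20, Rab5c and Rab19 remained. The direction of all 8 was the same in each of these fits. How many of all genes kept their call in these fits was not counted. The losses therefore cannot be read as particular to Rab genes or their regulators. A fit without a zymosan array takes its spread from the unstimulated arrays alone. Those lay farther apart (SD of the difference over tested probe sets 0.29) than the zymosan arrays (0.20).

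**Figure D5:**
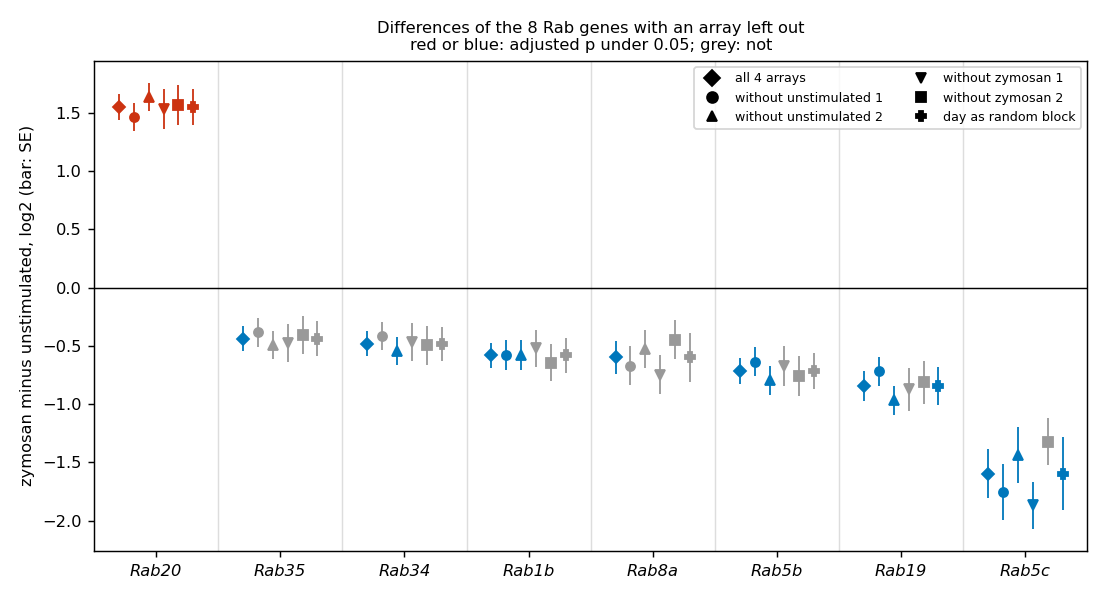
Zymosan minus unstimulated difference (log2, bars are SE) of the 8 Rab genes, each at its representing probe set. Fits are with all arrays, with each array left out in turn, and with arrays of 1 day correlated. Colour marks an adjusted p under 0.05. Rab5b is counted among the decreases here, although its other probe set was higher. Rab20 is coloured in all 6 fits, and each of the 7 decreases is grey without zymosan replicate 2.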

How the data were processed

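RNA was measured on 4 Affymetrix Mouse430_2 arrays. The values are log2 expression values that the authors made with RMA, per the submitters' processing notes, and deposited per probe set and array. RMA subtracts background, equalizes array distributions and summarizes probes, and its version is not given in the sources used here. Array medians lay between 4.92 and 4.94. Scanner settings files gave the chip type and which arrays shared a day, operator and project.

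Control probe sets (64) were set aside, and names came from the platform annotation, with probe sets of several symbols unnamed. Probe sets at or above the 40th percentile of the array (4.36 to 4.39) on at least 2 arrays were kept (27571). The comparison used limma 3.58.1 (lmFit, eBayes; R 4.3.3). Its 2-sided p-values were adjusted by Benjamini-Hochberg across everything kept, and every adjusted p comes from these fits. The SE is limma's moderated one. The script was tested on simulated data. No exact permutation p for this design goes below 0.333, and the number of arrays limits the precision. For a group wholly under the filter, the fold is taken against the filter and given as a lower bound.

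Members, compartments, lists and alternatives were chosen with earlier results of these data known. Named were every Rab gene past the test, the one of highest mean in each compartment, 12 Rabs of phagosomes and macrophage traffic, and up to 5 list genes in each direction. A few further members are named with their values, chosen after these were seen. No protein sequences were used here.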

Additional observations from a re-analysis of the deposited data

How the results depend on the processing

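Alternatives were no filter, a filter at the 60th percentile, repeated quantile normalization, median centring, an intensity trend, limma over genes, the mean of a gene's probe sets, leaving out each array, and arrays of 1 day treated as correlated. No paired analysis was possible because the labels give the groups no shared replicate numbers. duplicateCorrelation gave no value with 4 arrays, so the block used a within-day correlation of 0.54, from the spread of the same-day zymosan against that of the unstimulated arrays, a choice made after seeing the data.

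With all arrays 1 Rab gene was higher and 7 lower, 8 and 12 Rab probe sets, and 7 and 10 regulators and effectors. With each array left out in turn, Rab genes ran from 1 to 2 higher and 0 to 5 lower, where limma's count of 0, without zymosan replicate 2, stood beside 7 at an unadjusted p under 0.05. Rab probe sets ran from 1 to 9 higher and 1 to 10 lower, and regulators and effectors from 0 to 7 higher and 0 to 11 lower. With the day as a block, 2 Rab genes and 4 Rab probe sets were lower and 1 probe set higher, and limma called 0 regulators and effectors higher, beside 12 at an unadjusted p under 0.05, and 4 lower. The mean of a gene's probe sets gave 2 Rab genes higher. The 60th percentile filter, the trend and limma over genes each gave 11 regulators and effectors higher. These causes were not tested. By compartment, recycling Rabs had 0 lower without the filter, beside 5 at an unadjusted p under 0.05, and 1 with median centring.

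Reversed under the mean of a gene's probe sets were Rab5b (0.0691, adjusted p = 0.698) and Rab10 (-0.41, adjusted p = 0.0335), whose probe sets differed, and Rab31 became past the threshold (-0.87, adjusted p = 0.00615). The 8 Rab genes past the test kept their direction in every other alternative. Values near the filter's level measure little beyond background.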
